A study of Mus musculus with 11 samples.

Results

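The core cardiac transcription factors were followed in the mouse heart through their mRNAs. The set was fixed by name, with earlier results of these data known. It holds Gata4, Gata6, Nkx2-5, Tbx5, Tbx20, Mef2a, Mef2c, Mef2d, Hand2 and Srf, which are 10 of the 22608 genes of the table. All 10 passed the filter on low counts that left 11319 genes for testing. RNA came from the heart of 11 male mice between 8 and 16 weeks of age, labelled as ventricle. WT mice, labelled C57BL/6, received vehicle (WT VEH, n = 2) or JZL184 (WT JZL184, n = 3). CD mice, labelled WBS-CD, have 1 copy instead of a pair of the chromosome 5 interval that matches the segment lost in Williams–Beuren syndrome, in every cell, and received vehicle (CD VEH, n = 3) or JZL184 (CD JZL184, n = 3). JZL184, an inhibitor of monoacylglycerol lipase, the enzyme that breaks down the endocannabinoid 2-arachidonoylglycerol, was given at 8 mg/kg for 10 days. The treatment field of the labels calls the vehicle mice untreated, while their titles give vehicle. Levels are given as CPM, the counts of a gene relative to those of its library after correction for library composition, and a gene was called where the adjusted p of edgeR's quasi-likelihood test over all tested genes was under 0.05.

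These factors bind DNA and switch on the genes of the heart muscle cell. GATA4 and GATA6 are zinc finger proteins, NKX2-5 is a homeodomain protein, TBX5 and TBX20 carry a T-box, and HAND2 is a basic helix-loop-helix protein. MEF2A, MEF2C, MEF2D and SRF belong to the MADS box family, in which the MEF2 proteins bind an A/T-rich site and are held back by class IIa histone deacetylases, while SRF binds the CArG box together with coactivators such as myocardin. They build the heart in the embryo, several of them act on shared enhancers, and most stay on in adult heart muscle, where they act on genes of contraction, calcium handling and conduction.

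The genotype labels and the tissue were checked first, while the treatment labels were not checked. Of 25 genes of the deleted interval in the table, 14 were tested and all 14 were lower in each of the CD mice than in any WT mouse. No member lies in the interval, although Tbx5 lies on the same chromosome, 14.4 Mb from it. The cardiomyocyte markers Myh6 (8279 to 16035 CPM) and Tnnt2 (4538 to 5883 CPM) were high in all mice. The atrial markers Sln, Myl7 and Myl4 reached at most 0.188, 0.521 and 1.69 CPM, but Nppa, also on the atrial list, was at 49.2 to 220.2 CPM. Total counts lay between 69660329 and 92251550 per mouse. Mitochondrially encoded genes made up 36.4% to 40.1% of them in CD JZL184, 39.4% to 41.2% in WT VEH, 43.5% to 44.7% in CD VEH and 45.0% to 46.6% in WT JZL184. One CD VEH mouse, mouse A, stood apart by its haemoglobin and other erythroid genes, at 13291 CPM summed against 982 to 3740 CPM in the other 10 mice.

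The factors were not equally abundant. Per kilobase of the median transcript length of each gene, Srf had the highest mean level over the 11 mice, at 120.4 CPM per kb. Mef2d (54.2), Mef2a (46.7), Gata6 (40.1), Gata4 (40.0), Mef2c (32.6) and Tbx20 (31.4 CPM per kb) followed, and among these 6 the range between mice overlapped that of the next in order. Nkx2-5 had 18.8 CPM per kb, and Tbx5 (9.87) and Hand2 (8.39 CPM per kb) were the lowest, with ranges between mice that also overlapped. On this scale Srf was above 93.5% of the tested genes and Hand2 above 41.9%. Most of this order depends on the length used. With the longest transcript of each gene Srf was at 28.4, Mef2a at 22.5, Gata4 at 18.2 and Nkx2-5 at 17.8 CPM per kb, while Mef2c was at 6.15 and Tbx5 at 2.93, so Srf stayed at the top.

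**Figure D1:**
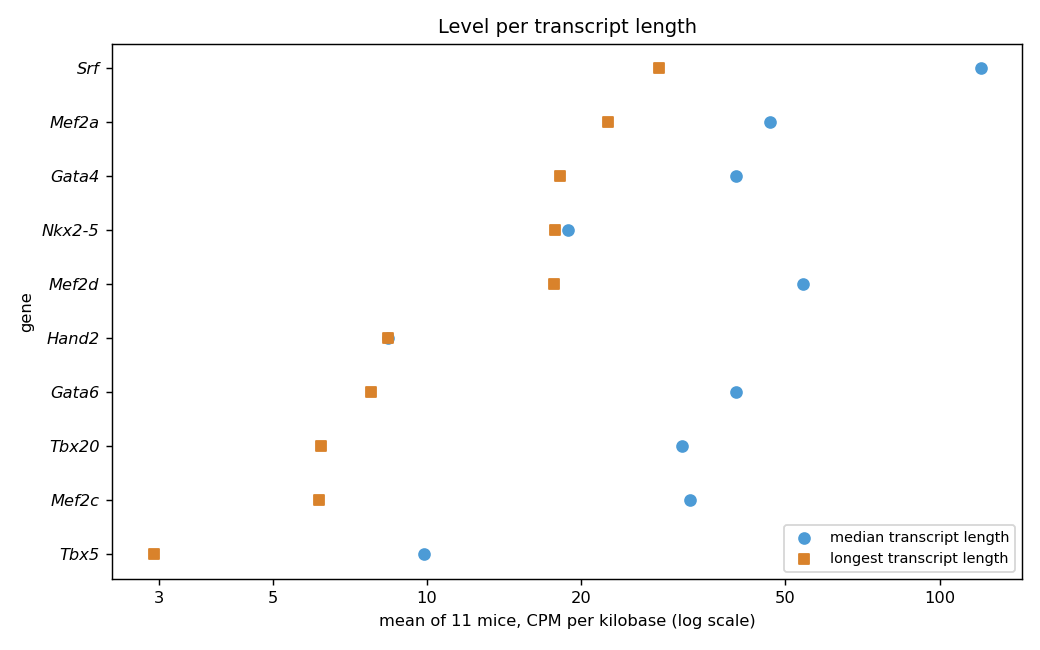
Mean level of each of the 10 factors over the 11 mice in CPM per kilobase of transcript, on a log axis, with the median and with the longest transcript length of the gene. Srf is the highest on both scales (120.4 and 28.4 CPM per kb), and the order of most other members changes with the length used.

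The factors called against WT VEH were lower, and those called in CD JZL184 against CD VEH or WT JZL184 were higher. In CD VEH mice, 4 of the 10 members were called lower than in WT VEH mice, where 15.4% of all tested genes were. After JZL184, 7 of 10 rose in CD mice, where 16.8% of all tested genes rose, and 4 of 10 fell in WT mice, where 14.0% of all tested genes fell. CD JZL184 mice were above WT JZL184 mice for 9 of 10 members, against 18.2% of all tested genes. The median log2 fold change over the 10 members was −0.20 for CD VEH against WT VEH, −0.26 for WT JZL184 against WT VEH, and 0.31 and 0.38 for CD JZL184 against CD VEH and against WT JZL184. Over all tested genes the median was 0.01 or closer to 0 in each of these. These comparisons share groups, so they are not independent of each other.

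The groups often did not overlap. All CD VEH mice were below both WT VEH mice for 5 of the 10 members, against 31.5% of all tested genes, and all WT JZL184 mice were below both for 8 of 10, against 27.3%. All CD JZL184 mice were above all CD VEH mice for 9 of 10, against 27.2% of all tested genes, and above all WT JZL184 mice for 9 of 10, against 23.6%. All 10 members were above their own mean over the 11 mice in each of the 3 CD JZL184 mice. In WT VEH, 7 members were above it in mouse C and 9 in mouse D. In CD VEH mice 7 or 8 members were below their mean, and in WT JZL184 mice 7 to 10 were. The 7 endothelial markers summed to 578 to 583 CPM in WT VEH, 845 to 914 CPM in WT JZL184, 719.9 to 808 CPM in CD VEH and 549.7 to 644 CPM in CD JZL184. In bulk tissue, fewer cells of a type and less RNA per cell cannot be told apart.

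**Figure D2:**
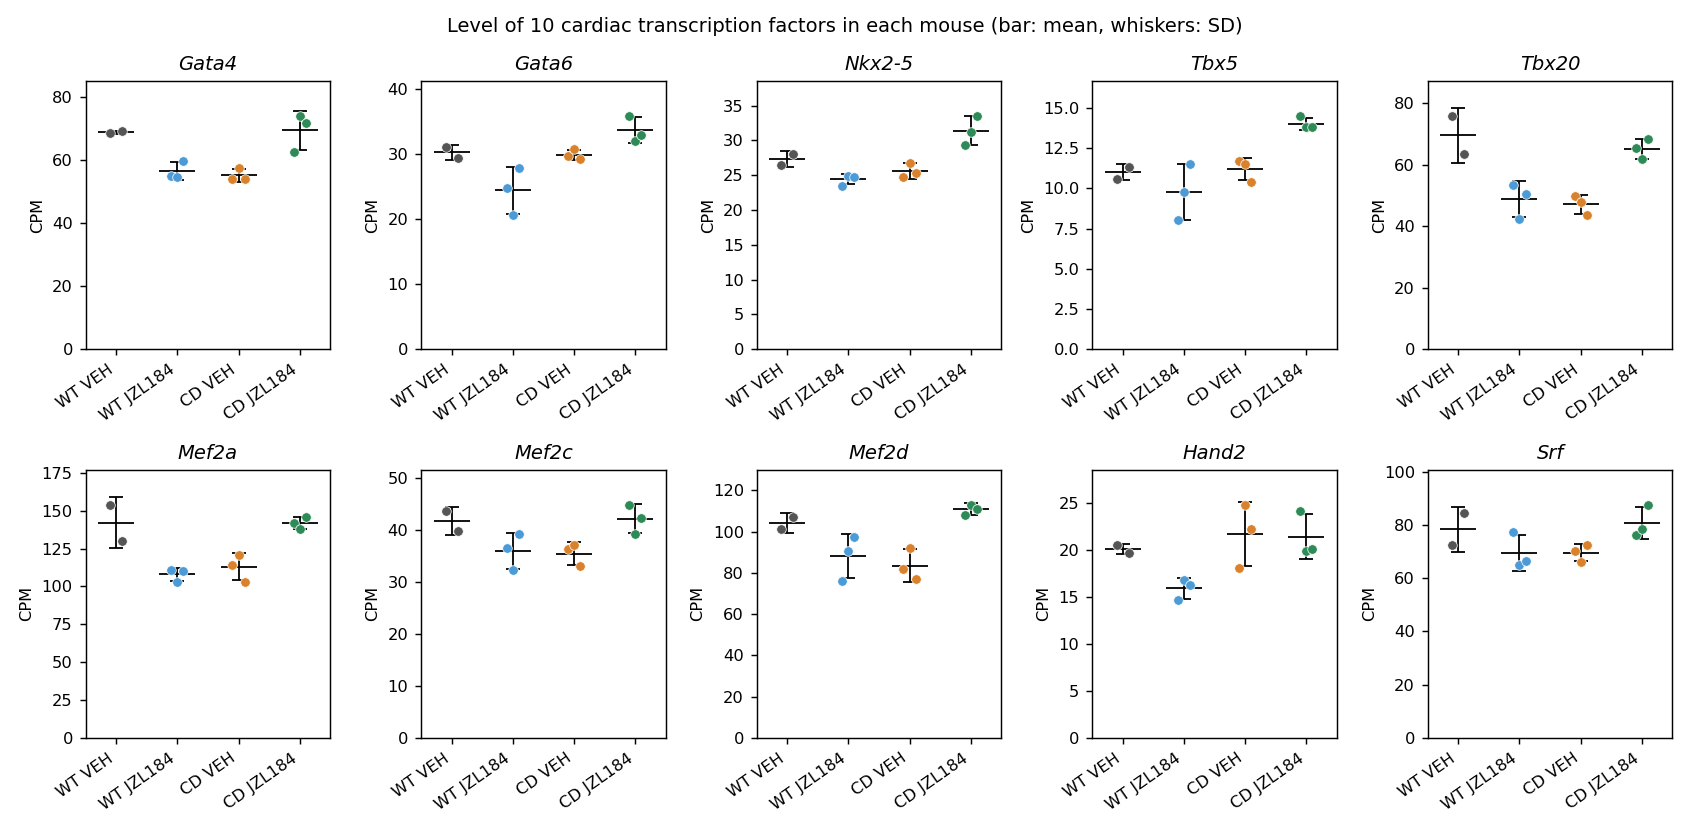
Level of each of the 10 factors in every mouse, in CPM on an axis that starts at 0, with the mice grouped by genotype and treatment, a line at each group's mean and whiskers for the SD. For 9 factors all 3 CD JZL184 mice sit above all 3 CD VEH mice, and Hand2 is the member whose CD groups overlap.

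Gata4 (chr14:63198922-63271692, GRCm38, minus strand) encodes a pioneer factor of heart muscle that opens closed chromatin. It was at 68.5 and 69.0 CPM in the WT VEH mice, at 55.0, 54.5 and 59.6 CPM in WT JZL184, at 54.0, 57.4 and 53.9 CPM in CD VEH and at 62.4, 73.9 and 71.8 CPM in CD JZL184. Both WT VEH mice lay above every CD VEH and every WT JZL184 mouse, and the lowest CD JZL184 mouse lay above the highest of both those groups. Relative to WT VEH, the CD VEH level differed by −0.32 ± 0.08 on the log2 scale (SE, adjusted p = 0.0117, edgeR), and the difference was 0.33 ± 0.07 (adjusted p = 0.00551) in CD JZL184 against CD VEH. In WT mice it fell by 0.29 ± 0.08 with JZL184 (adjusted p = 0.0182, edgeR). Without WT VEH mouse C or D the calls against that group were lost while the values stayed, at −0.32 and −0.31 for CD VEH (adjusted p = 0.0759 and 0.0688, edgeR) and −0.29 and −0.28 for WT JZL184 (0.0972 and 0.0938). The WT JZL184 call was also lost when the fit held only the compared groups (−0.27, adjusted p = 0.0644, edgeR).

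Gata6 (chr18:11052064-11085635, plus strand) encodes a GATA factor that shares many binding sites with GATA4. Its levels were 31.0 and 29.3 CPM in WT VEH, 24.7, 20.6 and 27.8 CPM in WT JZL184, 29.6, 30.7 and 29.2 CPM in CD VEH and 35.8, 32.0 and 32.9 CPM in CD JZL184. The CD VEH mice lay within or next to the WT VEH values, with a log2 fold change of −0.02 ± 0.10 and a 95% interval from −0.24 to 0.21. In WT JZL184 it fell by 0.31 ± 0.10 (adjusted p = 0.0428, edgeR), and CD JZL184 was above WT JZL184 by 0.46 ± 0.09 (adjusted p = 0.00326). The call in WT JZL184 against WT VEH was lost without WT JZL184 mouse A (adjusted p = 0.0559, edgeR) or B (−0.20, 0.110) or WT VEH mouse C (0.214) or D (0.111), with upper quartile scaling (0.0653) and with only the compared groups (0.138). The difference of 0.17 ± 0.09 between CD JZL184 and CD VEH did not pass (adjusted p = 0.168, edgeR), but did with only the compared groups (0.0493). A lncRNA, 1010001N08Rik, overlaps Gata6 on the opposite strand, and whether counting used strand is not given in the sources used here.

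Nkx2-5 (chr17:26838664-26845009, minus strand) encodes the homeodomain partner of GATA4 and TBX5. It had 26.4 and 28.1 CPM in WT VEH, 23.5, 24.9 and 24.7 CPM in WT JZL184, 24.7, 26.8 and 25.3 CPM in CD VEH and 29.4, 31.2 and 33.5 CPM in CD JZL184. The 3 CD JZL184 mice were above all other 8 mice. In CD mice it rose with JZL184 by 0.29 ± 0.06 on the log2 scale (adjusted p = 0.00601, edgeR), and CD JZL184 exceeded WT JZL184 by 0.36 ± 0.06 (adjusted p = 0.00171). The difference of CD VEH from WT VEH was −0.09 ± 0.07 (95% interval −0.24 to 0.06). That value depended on correction for sequence composition and length: with an offset for GC content it was −0.25 (adjusted p = 0.0159) and with an offset for gene length −0.24 (adjusted p = 0.0319). The length offset also gave 0.44 in place of 0.29 for the rise in CD mice (adjusted p = 0.00334, edgeR). For WT JZL184 against WT VEH the value was −0.16 ± 0.07 (adjusted p = 0.0976, edgeR), and these offsets gave −0.30 (0.00862) and −0.28 (0.0162).

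Of the T-box genes, Tbx20 was called between the vehicle groups and Tbx5 was not, and the difference between these genes was not tested. Tbx5 (chr5:119832668-119885219, plus strand), which patterns the chambers and the conduction system, had 10.6 and 11.3 CPM in WT VEH, 8.01, 9.77 and 11.5 CPM in WT JZL184, 11.7, 11.5 and 10.4 CPM in CD VEH and 14.5, 13.8 and 13.8 CPM in CD JZL184. Its CD VEH and WT VEH mice overlapped (0.03 ± 0.12, 95% interval −0.23 to 0.29), and the CD JZL184 mice were above every other mouse. It rose by 0.32 ± 0.11 after JZL184 in CD mice (adjusted p = 0.0341, edgeR), and CD JZL184 exceeded WT JZL184 by 0.52 ± 0.11 (adjusted p = 0.00351). The rise in CD mice kept a size of 0.28 to 0.36 but lost the call with upper quartile scaling (adjusted p = 0.0519, edgeR), with a gene length offset (0.0514) and when any single CD mouse was left out, with adjusted p of 0.0941, 0.0646 and 0.0750 without CD JZL184 mouse A, C or E and 0.0661, 0.0518 and 0.120 without CD VEH mouse A, C or E.

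Tbx20 (chr9:24718138-24774303, minus strand), which adult heart muscle needs for contraction and ion channel expression, had lower levels in CD VEH and in WT JZL184 than in WT VEH. Its levels were 75.8 and 63.3 CPM in WT VEH, 53.4, 42.3 and 50.6 CPM in WT JZL184, 49.9, 47.7 and 43.7 CPM in CD VEH and 65.3, 61.7 and 68.3 CPM in CD JZL184. WT VEH and CD JZL184 overlapped, and both were above every mouse of the other pair of groups. CD VEH was 0.678 times WT VEH (log2 −0.56 ± 0.10, adjusted p = 0.00466, edgeR), and CD JZL184 was 1.38 times CD VEH (0.47 ± 0.09, adjusted p = 0.00501). WT JZL184 was 0.702 times WT VEH (−0.51 ± 0.10, adjusted p = 0.00655, edgeR). Without WT VEH mouse C, the higher of the WT VEH pair, both values shrank, to −0.43 (adjusted p = 0.0656) and −0.38 (adjusted p = 0.0838). With a gene length offset they were both −0.35 (adjusted p = 0.0136 and 0.0116, edgeR), and the rise in CD mice was 0.28 (0.0204). Its promoter is shown because of the size of these values, from 250 bases before the annotated RefSeq start to 20 bases from it (chr9:24774284-24774553, GRCm38.p6, minus strand). Capitals in this and the other promoter windows mark any match, on either strand, to the motifs searched: the CArG box of SRF, the MEF2 site, GATAA for GATA factors, AAGTG for NKX2-5, GGTGTGA for T-box factors and the GC box GGGCGG, none of which overlap in the windows shown.
Tbx20: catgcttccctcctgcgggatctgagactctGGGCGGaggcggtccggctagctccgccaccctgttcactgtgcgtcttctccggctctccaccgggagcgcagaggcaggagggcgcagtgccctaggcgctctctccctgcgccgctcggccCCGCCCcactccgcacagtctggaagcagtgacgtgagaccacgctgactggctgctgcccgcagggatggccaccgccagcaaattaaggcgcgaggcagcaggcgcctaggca
Here the capitals are GC boxes, at −219 to −214 and −95 to −90 from the first transcribed base, which is position 1. A GC box stands in 34.1% of the 32817 promoter windows of the same length, and 68.9% of the bases were G or C, against a median of 52.6% over all windows.

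The 3 MEF2 genes shared their directions. Mef2a (chr7:67231163-67372858, minus strand) is the MEF2 form that predominates in the postnatal heart. It was at 154 and 130.1 CPM in WT VEH, at 111, 103 and 110.4 CPM in WT JZL184, at 114, 121 and 103 CPM in CD VEH and at 142, 138 and 146 CPM in CD JZL184. Both WT VEH and all CD JZL184 mice stood above all CD VEH and WT JZL184 mice. From WT VEH, it fell by 0.33 ± 0.09 on the log2 scale in CD VEH (adjusted p = 0.0159, edgeR) and by 0.39 ± 0.09 in WT JZL184 (adjusted p = 0.00827). From CD VEH to CD JZL184 it rose by 0.33 ± 0.08 (adjusted p = 0.00903, edgeR). Without WT VEH mouse C these differences from WT VEH were −0.20 (adjusted p = 0.193) and −0.27 (adjusted p = 0.109), and leaving out CD VEH mouse E made the first −0.27 (adjusted p = 0.0542). Lysmd4, on the opposite strand, overlaps Mef2a.

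Mef2d (chr3:88142372-88172086, plus strand), a mediator of the stress response of adult heart muscle, had 101 and 107 CPM in WT VEH, 76.2, 90.7 and 97.4 CPM in WT JZL184, 81.7, 92.1 and 76.8 CPM in CD VEH and 108, 113 and 111 CPM in CD JZL184. Its CD JZL184 mice were above every other mouse. It fell by 0.32 ± 0.10 in CD VEH (adjusted p = 0.0350, edgeR) and rose by 0.40 ± 0.09 after JZL184 in CD mice (adjusted p = 0.00736). The fall was not called without CD VEH mouse A (adjusted p = 0.0944) or E (0.114) or WT VEH mouse C (0.104) or D (0.185), nor with upper quartile scaling (0.0594) or a gene length offset (0.103), while the rise was called in all 15 alternatives with no replicate block. The value of −0.24 ± 0.10 in WT JZL184 against WT VEH did not pass (adjusted p = 0.0915, edgeR), but did without WT JZL184 mouse D (−0.32, adjusted p = 0.0450) and with a GC content offset (−0.28, 0.0275).

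Mef2c (chr13:83504034-83667080, plus strand), the MEF2 gene needed for the early heart tube, moved least of the 3. Its levels were 43.7 and 39.9 CPM in WT VEH, 36.5, 32.3 and 39.3 CPM in WT JZL184, 36.4, 37.2 and 33.0 CPM in CD VEH and 44.9, 39.3 and 42.4 CPM in CD JZL184. Every CD JZL184 mouse was above every CD VEH mouse, by 0.25 ± 0.08 on the log2 scale (adjusted p = 0.0355, edgeR). The call was lost without CD JZL184 mouse A (0.20, adjusted p = 0.126), CD JZL184 mouse E (0.25, 0.0929), CD VEH mouse A (0.27, 0.0683) or CD VEH mouse E (0.20, 0.128), with upper quartile scaling (0.22, 0.0517) and with a gene length offset (0.13, 0.145). CD JZL184 exceeded WT JZL184 by 0.23 ± 0.08 (adjusted p = 0.0449, edgeR), which was called in 8 of the 15 alternatives with no replicate block and not without CD JZL184 mouse A (adjusted p = 0.152) or E (0.105) or WT JZL184 mouse A (0.0640) or B (0.154), with upper quartile scaling (0.0631), a gene length offset (0.14, 0.103) or only the compared groups (0.0838). The differences from WT VEH, −0.24 ± 0.09 in CD VEH and −0.21 ± 0.09 in WT JZL184, did not pass (adjusted p = 0.0681 and 0.0931, edgeR), though the first did with only the compared groups (adjusted p = 0.0416) and the second without WT JZL184 mouse D (−0.28, adjusted p = 0.0483). With a gene length offset they shrank to −0.11 and −0.12 (adjusted p = 0.272 and 0.222, edgeR).

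A match to the MEF2 site itself stands at the start of Mef2a, at −2 to 8 (chr7:67372839-67373108, minus strand), and is the reason that window is shown.
Mef2a: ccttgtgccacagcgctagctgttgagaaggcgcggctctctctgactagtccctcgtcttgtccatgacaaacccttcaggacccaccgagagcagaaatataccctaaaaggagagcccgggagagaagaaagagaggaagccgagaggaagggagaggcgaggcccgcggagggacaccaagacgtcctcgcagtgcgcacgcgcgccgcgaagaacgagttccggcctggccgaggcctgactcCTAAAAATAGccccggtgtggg
The MEF2 site was found in 0.53% of all promoter windows, and in none of the windows of Mef2c and Mef2d. Such a match describes the letters and is not evidence of binding.

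Hand2 (chr8:57320983-57324633, plus strand), a gene of right ventricle formation, was not called between the CD groups. It was at 20.5 and 19.7 CPM in WT VEH, at 14.7, 16.8 and 16.3 CPM in WT JZL184, at 18.1, 24.8 and 22.2 CPM in CD VEH and at 24.1, 19.9 and 20.1 CPM in CD JZL184. The CD groups overlapped, and the JZL184 difference was −0.02 ± 0.11 with a 95% interval from −0.26 to 0.22. All 3 WT JZL184 mice were below all 8 other mice. CD JZL184 exceeded WT JZL184 by 0.42 ± 0.11 (adjusted p = 0.0122, edgeR), or by 0.33 (adjusted p = 0.0539) without CD JZL184 mouse A, and the difference between WT JZL184 and WT VEH, −0.33 ± 0.12, did not pass (adjusted p = 0.0642). The latter was called with DESeq2 (adjusted p = 0.0469), a GC content offset (−0.40, 0.0278, edgeR), a gene length offset (−0.38, 0.0452) and only the compared groups (0.0477). The antisense lncRNA Hand2os1, which begins close to Hand2, overlaps the gene, so that reads of both cannot be told apart if strand was not used. Its window (chr8:57320733-57321002, plus strand) is shown because it is the window with GATAA on both strands, at −214 to −210 and, as TTATC, at −172 to −168.
Hand2: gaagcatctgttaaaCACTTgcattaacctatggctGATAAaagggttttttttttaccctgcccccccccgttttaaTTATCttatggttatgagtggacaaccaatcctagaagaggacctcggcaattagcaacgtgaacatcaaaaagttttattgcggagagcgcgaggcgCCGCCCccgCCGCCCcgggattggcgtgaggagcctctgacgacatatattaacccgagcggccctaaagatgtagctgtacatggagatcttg
The other capitals are AAGTG on the opposite strand, at −235 to −231, and a pair of GC boxes, at −74 to −69 and −65 to −60. GATAA was found in 23.8% of all windows and AAGTG in 43.3%.

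Srf (chr17:46548329-46556175, minus strand), which drives genes of the actin cytoskeleton and the sarcomere, had no called difference between any pair of groups. Its levels were 72.3 and 84.3 CPM in WT VEH, 77.3, 65.0 and 66.3 CPM in WT JZL184, 70.1, 66.1 and 72.5 CPM in CD VEH and 76.1, 78.6 and 87.6 CPM in CD JZL184. The CD JZL184 mice were above the CD VEH mice without overlap, and the other groups overlapped. Relative to WT VEH, the log2 fold change was −0.17 ± 0.10 in both CD VEH and WT JZL184 (adjusted p = 0.188 and 0.190, edgeR), and that of CD JZL184 was 0.22 ± 0.09 relative to both CD VEH and WT JZL184 (adjusted p = 0.0708 and 0.0654). Over the alternatives the first pair of values ran from −0.30 to −0.06 and from −0.28 to −0.06, with −0.06 in CD VEH without WT VEH mouse D. DESeq2 called both of the positive differences (adjusted p = 0.0460 and 0.0486), a gene length offset did too (0.26 and 0.25, adjusted p = 0.0377 and 0.0385, edgeR), and only the compared groups called the first (0.0297). Without WT JZL184 mouse A the last was 0.30 (adjusted p = 0.0134, edgeR) and WT JZL184 against WT VEH −0.25 (0.0429). The window at the Srf start (chr17:46556143-46556412, minus strand) is shown because it holds a pair of CArG boxes, the site that SRF itself binds, at −82 to −73 and −62 to −53.
Srf: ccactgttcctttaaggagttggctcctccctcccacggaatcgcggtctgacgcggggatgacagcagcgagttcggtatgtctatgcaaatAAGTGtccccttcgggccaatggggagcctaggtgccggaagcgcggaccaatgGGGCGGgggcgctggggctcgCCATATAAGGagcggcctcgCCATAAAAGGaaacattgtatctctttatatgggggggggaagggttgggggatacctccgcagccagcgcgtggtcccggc
CArG boxes stand in 1.53% of all promoter windows. The capitals further from the start are AAGTG at −157 to −153 and a GC box at −103 to −98.

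Whether JZL184 acted differently in the genotypes was tested directly, as the JZL184 change in CD mice minus that in WT mice. It was positive for all 10 members, between 0.31 and 0.98 on the log2 scale with a median of 0.48, and passed for 9 of 10, all but Hand2 (0.31 ± 0.17, adjusted p = 0.141, edgeR). Over all tested genes, 25.3% passed in the same direction and 51.5% in either, with a median of −0.01. The largest value was that of Tbx20 (0.98 ± 0.14, adjusted p = 0.000324, edgeR), followed by Mef2a (0.72 ± 0.12, 0.000518), Mef2d (0.64 ± 0.14, 0.00237) and Gata4 (0.62 ± 0.10, 0.000653). Gata6, Nkx2-5, Tbx5, Mef2c and Srf lay between 0.39 and 0.49. This order depended on gene length: with a length offset Nkx2-5 was at 0.73 and Tbx20 at 0.63, and Mef2c at 0.26 (adjusted p = 0.000301, 0.00112 and 0.0482, edgeR). Those of Gata4, Nkx2-5, Tbx20, Mef2a, Mef2c and Mef2d were called in each of the 19 alternatives with no replicate block. Gata6 was not called without WT VEH mouse C (adjusted p = 0.0562, edgeR), Tbx5 not without CD VEH mouse E (0.0537) or WT VEH mouse D (0.0845), and Srf not without CD JZL184 mouse E (0.0640) or WT VEH mouse D (0.143), whereas Hand2 was called without CD VEH mouse C (0.0439).

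**Figure D3:**
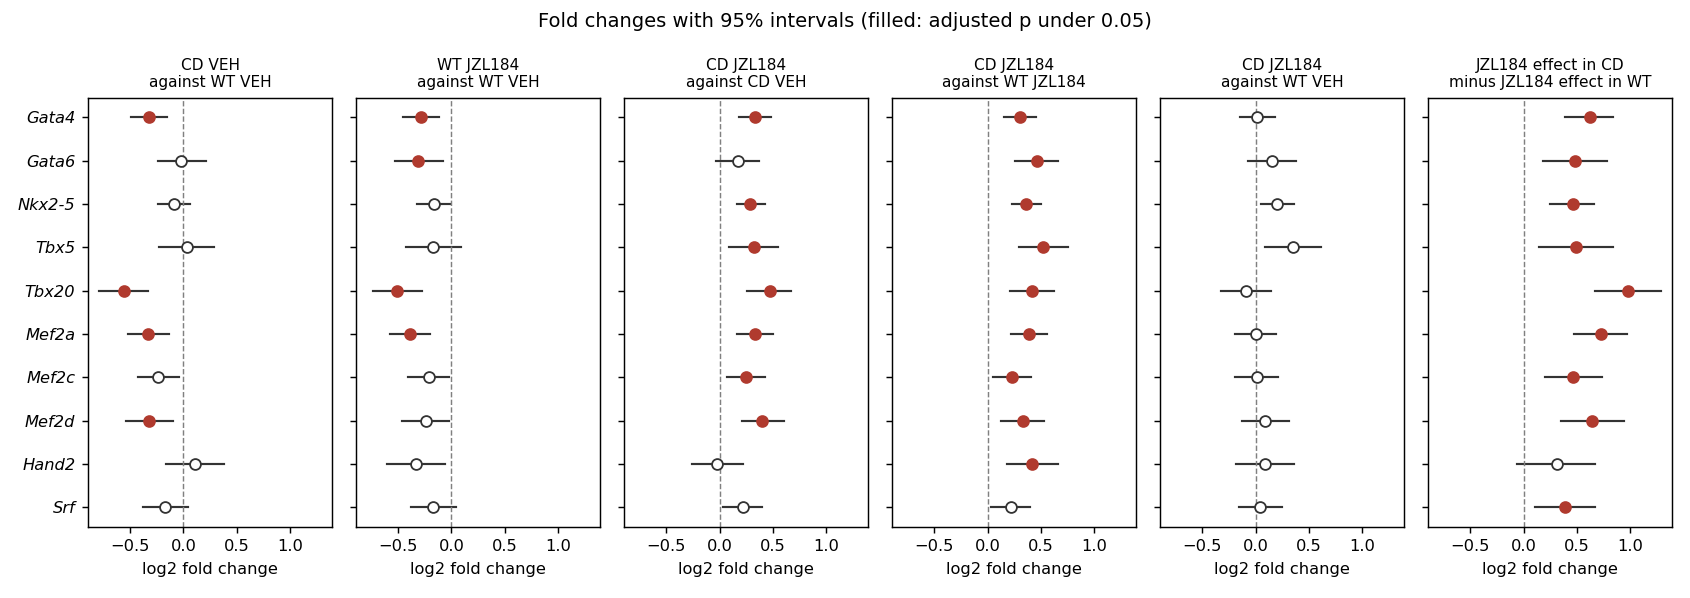
Log2 fold change of the 10 factors in 5 comparisons of groups and, on the right, the JZL184 change in CD minus that in WT mice, with bars for the 95% interval and filled points where edgeR's adjusted p was under 0.05. Most members lie below 0 in the first pair of panels (medians −0.20 and −0.26), above 0 in the next pair (0.31 and 0.38) and near 0 for CD JZL184 against WT VEH (0.07).

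CD JZL184 mice were also compared with WT VEH mice, which asks how far the CD heart under JZL184 differed from the WT heart under vehicle. None of the 10 members was called, where edgeR called 0.186% of all tested genes, and DESeq2 called none either, against 0.442% higher and 0.486% lower of all tested genes. At an unadjusted p under 0.05, which 9.38% of all tested genes had, there were 2, Nkx2-5 (0.20 ± 0.07, adjusted p = 0.401, edgeR) and Tbx5 (0.35 ± 0.12, adjusted p = 0.381). Over the 14 alternatives with no replicate block, the value of Nkx2-5 ran from 0.07 to 0.25 and that of Tbx5 from 0.31 to 0.4. Gata6, Nkx2-5, Tbx5 and Mef2d were higher in every CD JZL184 mouse than in both WT VEH mice, which held for 17.7% of all tested genes. The 95% intervals of the other 6 members ran from −0.15 to 0.18 for Gata4, −0.32 to 0.14 for Tbx20, −0.19 to 0.19 for Mef2a, −0.19 to 0.21 for Mef2c, −0.18 to 0.36 for Hand2 and −0.16 to 0.25 for Srf, so that differences within these bounds remain compatible with the data.

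With 2 WT VEH mice, the counts of called members against that group depend on each of them. In CD VEH against WT VEH, 4 members were called with both mice, 2 without mouse D, where 6.37% of all tested genes were called lower, and none without mouse C, where 1.90% were. Without mouse C, 4 members still had an unadjusted p under 0.05 (edgeR), as had 29.2% of all tested genes. In WT JZL184 against WT VEH the counts were 4, 2 and none, with 4.48% of all tested genes called lower without mouse D and 1.63% without mouse C, where 5 members and 29.2% of all tested genes had an unadjusted p under 0.05. Without WT JZL184 mouse D the count was 7, and 12.3% of all tested genes were called lower. The member median barely moved, at −0.19 and −0.16 without WT VEH mouse C or D in the first comparison and at −0.27 and −0.28 in the second. Leaving out CD VEH mouse E gave 2 members in the first, with 9.07% of all tested genes called lower. With upper quartile scaling 61.5% of all calls in the first comparison were higher instead of 49.2%, and 64.0% instead of 52.5% in the second, and 3 members were called lower in each, against 11.9% and 10.3% of all tested genes.

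Called endothelial, fibroblast, smooth muscle and macrophage markers went against the factors. All 5 macrophage markers were called higher in CD VEH and in WT JZL184 than in WT VEH, and 4 of the 5 lower in CD JZL184 than in each of CD VEH and WT JZL184. Of the 7 endothelial markers, 5 were higher in CD VEH and 6 in WT JZL184 than in WT VEH, and 5 and 6 were lower in CD JZL184 than in CD VEH and WT JZL184. Of 6 fibroblast markers the counts were 3, 4, 3 and 4 in the same order, and their sum was 567 to 592 CPM in WT VEH, 733 to 905 CPM in WT JZL184, 674 to 761 CPM in CD VEH and 532 to 586 CPM in CD JZL184. The smooth muscle sum was 78.7 to 89.6, 120.2 to 159, 91.1 to 100.3 and 57.5 to 73.6 CPM, the pericyte sum 823 to 826, 1006 to 1057, 919.7 to 1074 and 782 to 821 CPM, and the macrophage sum 76.2 to 80.5, 97.5 to 159.7, 104 to 128 and 70.8 to 80.5 CPM in that order of groups. Single pericyte markers went both ways, with 3 of 4 higher and 1 lower in CD VEH than in WT VEH and 1 higher and 2 lower in CD JZL184 than in CD VEH. The conduction set (2 of 4 tested) also went both ways, with 1 higher and 1 lower in CD JZL184 than in each of CD VEH and WT JZL184, and of the atrial (4) and epicardial (3) sets only 1 gene each was tested. The atrial gene was not called, and the epicardial one, Wt1, was lower in CD JZL184 than in CD VEH (−0.42) and WT JZL184 (−0.67). All 4 erythroid markers were called lower in CD JZL184 than in CD VEH (median −2.18), but none without CD VEH mouse A (median −0.42), and 4 with and 3 without that mouse were lower in the test of the JZL184 change between genotypes. Of the 8 cardiomyocyte markers, 3 were lower in CD VEH and 4 in WT JZL184 than in WT VEH, and 3 were higher and 1, Myl2, lower in CD JZL184 than in each of CD VEH and WT JZL184. Their summed level was 40403 to 40964 CPM in WT VEH, 28333 to 38555 CPM in WT JZL184, 34450 to 37376 CPM in CD VEH and 37290 to 40881 CPM in CD JZL184. The part of cell composition in the changes of the factors was not tested. The share of mitochondrial counts also moved with the groups, and without mitochondrial genes the numbers of called members were the same in every comparison (4, 7, 4, 9, 0 and 9), with 15.3% of all tested genes lower, 16.9% higher, 13.8% lower and 18.1% higher in the first 4, 0.0442% higher and 0.142% lower in the fifth and 25.3% higher in the last.

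**Figure D4:**
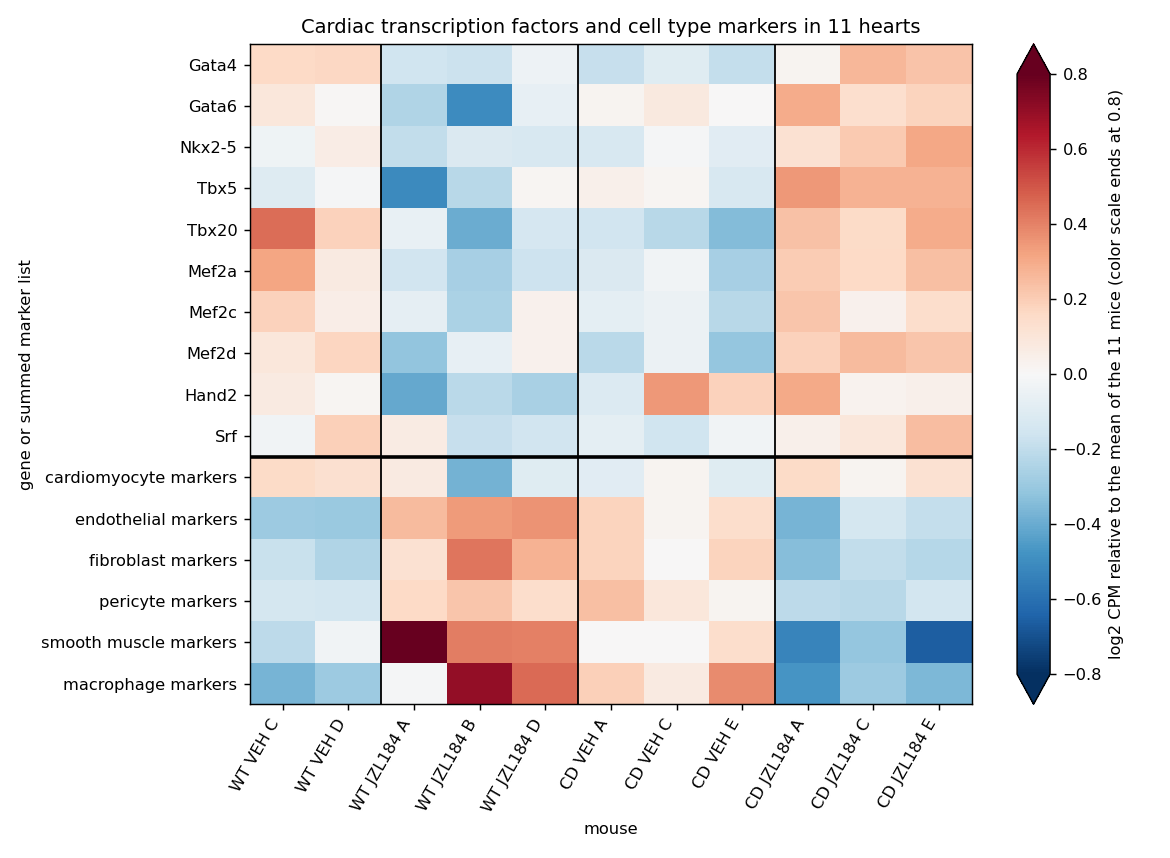
Log2 CPM of the 10 factors and of the summed marker sets in each of the 11 mice, each row centred on its mean over the mice. The factors are above their mean in all CD JZL184 mice and mostly below it in CD VEH and WT JZL184, and the summed endothelial, fibroblast, smooth muscle, pericyte and macrophage rows are mostly above theirs there.

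Of 18 further transcription factors and cofactors that work with these members in the heart, 14 were tested. In CD VEH against WT VEH 3 rose and 2 fell, and in CD JZL184 against CD VEH 6 rose and 2 fell. In WT JZL184 against WT VEH 2 rose and 4 fell, and in CD JZL184 against WT JZL184 5 were higher and 2 lower. Over all tested genes the opposite directions to those given for the members were called for 15.0% (higher), 17.0% (lower), 15.4% (higher) and 20.1% (lower) in this order of comparisons. The median log2 fold changes of the 14 were −0.06, 0.16, −0.02 and 0.14. Tead1, the Hippo pathway factor that binds many muscle promoters, went from 175 CPM in WT VEH to 113 CPM in CD VEH (log2 −0.63 ± 0.09, adjusted p = 0.00251, edgeR) and was at 174 CPM in CD JZL184 (0.62 ± 0.08 above CD VEH, adjusted p = 0.00201). Prox1, a homeodomain factor of striated muscle and lymphatic cells, had the same directions (53.1, 33.3 and 50.8 CPM in WT VEH, CD VEH and CD JZL184), with both changes called. Zfpm2, the GATA4 cofactor FOG2 (14.1, 12.1 and 16.7 CPM), rose in CD mice by 0.47 ± 0.07 (adjusted p = 0.00235, edgeR), while its −0.22 ± 0.08 in CD VEH against WT VEH did not pass (adjusted p = 0.0528). The repressor T-box gene Tbx3, which keeps the conduction system from becoming working muscle, moved against Tbx20, from 6.78 CPM in WT VEH to 9.63 CPM in CD VEH (0.50 ± 0.11, adjusted p = 0.00855, edgeR) and 7.00 CPM in CD JZL184. Tbx2, a related repressor, rose in WT JZL184 (3.29 to 5.57 CPM, 0.76 ± 0.16, adjusted p = 0.00636, edgeR). It was also higher in CD VEH than in WT VEH (0.48 ± 0.16, adjusted p = 0.0359, edgeR) and lower in CD JZL184 than in WT JZL184 (−0.48 ± 0.13, 0.0158). Tbx18, a gene of the epicardium and sinus node, was higher in CD VEH (3.29 to 4.88 CPM, 0.57 ± 0.11, adjusted p = 0.00612, edgeR) and fell after JZL184 in CD mice (−0.39 ± 0.10, 0.0123).

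Among the 6 SRF coactivators and partners, Myocd stood out by size. Myocd, which encodes myocardin, was at 43.7 CPM in WT VEH, 24.2 CPM in WT JZL184, 26.1 CPM in CD VEH and 40.4 CPM in CD JZL184, and the log2 fold change between the vehicle groups was −0.74 ± 0.11 (adjusted p = 0.00227, edgeR) and that between the CD groups 0.63 ± 0.10 (adjusted p = 0.00235). Elk1, a ternary complex factor, fell by 0.22 ± 0.06 in CD VEH (adjusted p = 0.0260, edgeR), and Fhl2, a LIM protein that binds SRF, rose by 0.31 ± 0.11 (adjusted p = 0.0471). Over the list, 1 rose and 2 fell in CD VEH against WT VEH, 2 rose in CD JZL184 against CD VEH, 1 fell in WT JZL184 against WT VEH and 1 was higher in CD JZL184 than in WT JZL184. In this order, 15.0% and 15.4%, 16.8%, 14.0% and 18.2% of all tested genes were called in these directions. Of the 4 class IIa histone deacetylases, which hold MEF2 proteins back, Hdac4 (22.5, 18.1, 16.8 and 22.4 CPM in WT VEH and WT JZL184, then CD VEH and CD JZL184) and Hdac9 (18.6, 15.8, 14.6 and 18.7 CPM) fell in CD VEH (−0.42 ± 0.10 and −0.35 ± 0.12, adjusted p = 0.0124 and 0.0383, edgeR) and rose after JZL184 in CD mice (0.42 ± 0.09 and 0.36 ± 0.10, adjusted p = 0.00722 and 0.0210). Hdac5 was higher in CD VEH than in WT VEH (0.24 ± 0.07, adjusted p = 0.0339, edgeR), and Hdac7 rose in WT JZL184 (0.30 ± 0.08, adjusted p = 0.0195).

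Of 18 genes known as targets of these factors in heart muscle, all tested, 6 fell in CD VEH and 6 in WT JZL184 against WT VEH. In CD JZL184 7 rose and 1 fell against CD VEH, and 6 were higher and 4 lower than in WT JZL184. In this order, 15.4%, 14.0%, 16.8% and 17.0%, and 18.2% and 20.1% of all tested genes were called in these directions. Medians were −0.34, −0.16, 0.08 and 0.09, the last pair small beside the counts because genes of the list went both ways. Slc8a1, the sodium-calcium exchanger (136, 87.4, 88.1 and 143 CPM in WT VEH and WT JZL184, then CD VEH and CD JZL184), Ryr2, the calcium release channel (1323, 792, 974 and 1511 CPM), and Myh7, the beta myosin heavy chain (210.4, 106, 101 and 165 CPM), each had lower means in WT JZL184 and CD VEH than in WT VEH and CD JZL184, and each rose after JZL184 in CD mice (0.70 ± 0.15, 0.63 ± 0.16 and 0.70 ± 0.18, adjusted p = 0.00656, 0.0123 and 0.0121, edgeR). Nppb, the B-type natriuretic peptide, went the other way in the treated mice, at 124 CPM (SD 33.4) in CD JZL184 against 312 CPM (SD 152) in WT JZL184 (−1.33 ± 0.36, adjusted p = 0.0137, edgeR). It was not called in WT JZL184 against WT VEH (0.59 ± 0.40, adjusted p = 0.282, edgeR) or in CD JZL184 against CD VEH (−0.04 ± 0.36, 0.948).

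Of 14 SRF target genes, 13 were tested, and Srf itself was not called in any of these comparisons. In CD VEH against WT VEH 6 rose and 3 fell, and after JZL184 in CD mice 1 rose and 6 fell. In WT JZL184 against WT VEH 4 rose and 1 fell, and 6 were lower in CD JZL184 than in WT JZL184. In this order, 15.0% and 15.4%, 16.8% and 17.0%, 15.4% and 14.0%, and 20.1% of all tested genes were called in these directions. Medians were 0.56, −0.58, 0.34 and −0.40. The smooth muscle genes Tagln (10.8, 24.1, 17.6 and 9.78 CPM in WT VEH and WT JZL184, then CD VEH and CD JZL184) and Myh11 (13.6, 33.1, 22.1 and 14.1 CPM) and the cytoplasmic actin gene Actb (161, 219, 238 and 158 CPM) shared that direction, and Tagln and Myh11 are also on the list of smooth muscle markers. Acta1, the skeletal alpha-actin, departed from both patterns, with 215 and 178 CPM in the WT groups and 45.6 and 50.4 CPM in the CD groups (−2.24 ± 0.37 between the vehicle groups, adjusted p = 0.00330, edgeR). Vcl, the adhesion protein vinculin, went against the medians of the list. It was lower than in WT VEH in CD VEH (−0.47 ± 0.11, adjusted p = 0.00904, edgeR) and in WT JZL184 (−0.31 ± 0.11, 0.0464). In CD mice it rose after JZL184 (0.38 ± 0.10, adjusted p = 0.0131, edgeR), and it was not called between the JZL184 groups (0.21 ± 0.10, 0.0967).

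The genes whose log2 CPM ran closest to each factor over the 11 mice were found by the root mean square difference of centred values, as a description. Gata4 was nearest to Fto, at 0.0300 against its own spread of 0.169, and next to Thada (0.0416). Mef2d was nearest to Hdac4 (0.0458) and Prrc2b, Mef2a to Atp11a (0.0414) and Qser1, and Mef2c to Rsf1 (0.0398) and Ubr1. Tbx20 was nearest to Tmem252 (0.0504) and Hipk3, Nkx2-5 to Pi4k2a (0.0418) and Gga1, and Gata6 to Dhrs11 (0.0576) and Rpl3l. Srf was nearest to Alg12 (0.0537) and Riox2. Tbx5 (Impa2, 0.0789, and Castor2) and Hand2 (Proser2, 0.0994, and Pxylp1) had no gene as close. Among the members themselves, the nearest pairs were Gata4 with Mef2d (0.0908) and Mef2a with Mef2c (0.0911), and Hand2 was farthest from its nearest member, Gata6 (0.166).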

How the data were processed

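RNA from the heart of 11 male mice in 4 groups was sequenced by the authors, who quantified transcripts with Salmon 0.7.2 on Ensembl release 85 of mm10 and took gene sums by tximport 1.2.0. They deposited a single table of estimated counts, without normalization. Its columns give the group and a letter, which is used here to name the mice, and 0 columns were without a group.

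After rounding, the estimated counts went into edgeR 4.0.16 with limma 3.58.1 under R 4.3.3 (TMM scaling, quasi-likelihood test, all 4 groups in 1 model, no covariates). A gene was tested where its average log2 CPM reached 1, with Benjamini-Hochberg adjustment over 11319 genes. The common biological coefficient of variation was 9.13%. At the depth of these mice 3 counts are 0.0325 to 0.0431 CPM, for counting error only. Mice of 1 group differed by a chi-square of 22.6 to 125 per gene, so none was a repeat of another. Positions and lengths came from GENCODE mouse release 21 (22238 of 22608 genes matched) and promoters from RefSeq, with 9 windows for 7 of the 10 members and none for Gata4, Gata6 and Tbx5.

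The members and lists were chosen with earlier results of these data known. The text names all members, the 2 genes nearest to each in log2 CPM (prior count 2), and, from each list and in each comparison, up to 4 called genes with the widest change among those whose groups do not overlap. For 1 gene of the lists no result is reported here. Alternatives were DESeq2 1.42.0 (the authors used 1.26.0), RLE and upper quartile scaling, no filter or at least 10 counts in every mouse, loess offsets for length and GC content (span 0.5), only the compared groups, no mitochondrial genes, leaving out each mouse and, chosen after seeing the data, a block on the column letter. The steps were tested on simulated data.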

Additional observations from a re-analysis of the deposited data

Results flagged for a closer look

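The response to JZL184 differed between the genotypes for 9 of the 10 factors, by edgeR's test of the difference itself, as it did for 51.5% of all tested genes (25.3% in the same direction), and they are given again for that reason. The JZL184 change in CD mice exceeded that in WT mice by 0.98 on the log2 scale for Tbx20, 0.72 for Mef2a, 0.64 for Mef2d and 0.62 for Gata4. It exceeded it by 0.49 for Tbx5, 0.48 for Gata6, 0.46 for Nkx2-5, 0.46 for Mef2c and 0.39 for Srf, and the calls of Gata6, Tbx5 and Srf were each lost without at least 1 single mouse. No value in a single mouse could be examined as far from its group, since the groups hold 2 or 3 mice.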

How the results depend on the processing

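The number of members called kept within 1.5 times its value in CD JZL184 against CD VEH, in CD JZL184 against WT JZL184 and in the test of the JZL184 change between genotypes under all alternatives with no replicate block, with 5 to 6, 7 to 9 and 7 to 10 members when a mouse was left out, where 9.0% to 17.8%, 12.0% to 20.5% and 19.7% to 28.2% of all tested genes were called higher. Leaving out a mouse gave 0 to 4 members in CD VEH against WT VEH and 0 to 7 in WT JZL184 against WT VEH (with at least 1.90% and 1.63% of all tested genes lower), where a GC content offset gave 7 (16.5%). CD JZL184 against WT VEH had 0 under every alternative with edgeR or DESeq2, and 0 to 3 at an unadjusted p under 0.05, as had 4.20% to 16.7% of all tested genes. Where an arm was left with 1 WT VEH mouse, that mouse was assumed to vary like the other groups. Direction changed only for values that were not called. Gata6 in CD VEH against WT VEH was 0.03 with upper quartile scaling, 0.00 with a length offset and −0.06 to 0.03 without single mice, and Tbx5 there was −0.02 to 0.08. Hand2 in CD JZL184 against CD VEH was 0.04 with a length offset and −0.13 to 0.09 without single mice. In CD JZL184 against WT VEH, Mef2a was 0.00 with at least 10 counts, without mitochondrial genes, with only the compared groups and with DESeq2, 0.01 with upper quartile scaling, no filter or a length offset and 0.06 with a GC content offset, while that offset gave −0.04 for Gata4 and −0.07 for Srf. Without single mice these were −0.12 to 0.13 for Mef2a, −0.03 to 0.08 for Gata4, −0.06 to 0.16 for Srf, −0.05 to 0.08 for Mef2c, −0.01 to 0.14 for Hand2 and −0.22 to 0.04 for Tbx20. Over all results and alternatives with no replicate block, 30 values changed direction, 49 lost and 22 gained a call, and the cause was not tested. The table's columns carry letters and not the labels' replicate numbers, and no label says what a shared letter means, so the letters do not pair the mice by design. In mice with the same letter, the correlation of deviations from the group means ran from −0.25 to 0.31 over 8 pairs, with 1 above 0.1. A replicate block on the letter, chosen after seeing the data, left 3 residual degrees of freedom. It gave 2 members in CD VEH against WT VEH, 0 in WT JZL184 against WT VEH (3 at an unadjusted p under 0.05, edgeR) and 4 in CD JZL184 against WT JZL184, where 10.9% lower, 1.43% lower and 4.89% higher of all tested genes were called. With that block the other counts were 7, 0 and 9, and Gata6 in CD VEH and Srf in CD JZL184, both against WT VEH, were 0.02 and −0.03. Depth sets a limit of at most 0.0431 CPM, under the lowest level of any member in any mouse (8.01 CPM, Tbx5), so the spread between mice and their number set the precision.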

Other observations

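Relatives of the core factors that are known from the embryonic heart had low counts in these mice. Hand1, which with Hand2 divides the early ventricles, had at most 2 counts in a mouse (0.0235 CPM), and Isl1, a gene of cardiac progenitors and the sinus node, at most 1. Gata5 had 10 to 18 counts (0.117 to 0.223 CPM) and Mef2b, the MEF2 gene not among the members, 6 to 16 counts (0.0844 to 0.196 CPM). None of the 4 passed the filter on low counts, so they were not tested.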
